A study of Citrus maxima and Citrus sinensis with 12 samples.

Results

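The miR156, miR157 and miR172 miRNAs of citrus root tips were taken from the deposited count table by family number, which gave 6 entries and 4 of its 126 distinct mature sequences. The table held 170 entries that could be tested, all 6 among them, and 2 more with too few counts. miR156 accounted for 4 entries (3 loci with 1 shared sequence, called miR156.1, miR156.2 and miR156.3 here, and miR156k), miR157 for 1 and miR172 for 1. In flowering plants miR156 and miR157 act on transcripts of the SBP (SPL) transcription factors and are abundant in the juvenile phase. miR172 acts on AP2-like factors and, in Arabidopsis, becomes more abundant as miR156 declines, partly because SPL proteins activate its genes. In Arabidopsis roots the miR156 and SPL module also bears on the formation of lateral roots.

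Root tips of 2 species were used: the pummelo C. grandis, whose organism field reads Citrus maxima, and the sweet orange C. sinensis. Seedlings that were 11 weeks old were grown in sand and irrigated for 15 weeks with nutrient solution that held 10 µM H3BO3 (control) or 400 µM H3BO3 (boron-toxic), which gave 4 groups of 3 libraries. Each library was made from pooled RNA of 5 replicates, and it is not known here whether the 3 libraries of a group had plants in common, so the p-values measure the spread between these libraries, which may be technical. Library totals over all entries ran from 479090 to 1062488 counts, with a sequence that stood in several entries counted in each. With each sequence counted once they ran from 282153 to 577152. The labelled tissue was not checked, since a miRNA table holds no set of tissue markers.

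The 4 mature sequences are shown because the predicted targets and the counts attach to them. Capitals mark the seed, bases 2 to 8 from the 5′ end.
miR156.1, miR156.2 and miR156.3: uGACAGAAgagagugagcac
miR156k: aUGACAGAagagagagaguac
miR157: uUGACGGAagauagagagcac
miR172a-5p: gCAGCGUCcucaagauucaca
The 3 miR156 loci shared 1 seed, and each of the other seeds stood in 1 entry; none of the 4 seeds was found in an entry outside these families. miR156k and miR157 carried 1 extra base at the 5′ end relative to miR156, so that their seeds were shifted by 1 base. Over the 20 aligned bases, counted from 1 at the 5′ end of miR156, miR156k differed from miR156 by U14A and C18U, and miR157 by A5G, G11U and U14A. U14A was thus shared by miR156k and miR157, and A5G, in miR157, was the difference that lay within the seed.

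The miR172 entry was the 5p arm. In plants the 3p arm of miR172 is the one that acts on AP2 transcripts, and the deposited table lists the other arm of this hairpin as the star sequence, without a count.
miR172a-5p, star: agaaucuugaugaugcugcaa
The values below are therefore those of the 5p arm of miR172a, and no entry measured the arm that acts on AP2 transcripts. The name AP2 side, given to miR172 as a family, was not borne out for this entry, and it is called miR172a-5p throughout.

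The hairpins were placed in windows of 250 nt on genome scaffolds of an unstated build, and the genes around them were not analysed here. miR156.1 lay on scaffold 1, plus strand, from 25708429 to 25708678. miR156.2 lay on scaffold 1, minus strand, from 1110677 to 1110926, and miR156.3 on scaffold 1, minus strand, from 28593338 to 28593587. miR156k lay on scaffold 1, plus strand, from 23475310 to 23475559. miR157 was on scaffold 6, minus strand, from 22903800 to 22904049, and miR172a-5p on scaffold 7, plus strand, from 1319345 to 1319594. The 3 miR156 hairpins gave the same mature sequence from different precursors, as their star arms show.
miR156.1, star: gcucacucucuaucugucacc
miR156.2, star: gcucacugcucuuucugucagc
miR156.3, star: ugcucgcuccucuucugucagc
The star of miR156.1 was 3 edits from that of miR156.2 and 5 from that of miR156.3, and the stars of miR156.2 and miR156.3 were 4 edits apart.

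Although the 3 miR156 loci hold 1 mature sequence, their counts were not identical. miR156.1 had 0.671 to 0.747 times the counts of miR156.3 over the 12 libraries, and miR156.2 had 0.837 to 1.00 times. For miR156.1 the group means of this ratio were 0.733 ± 0.0161 and 0.702 ± 0.0342 (SD, n = 3) in C. grandis at 10 and 400 µM, and 0.723 ± 0.0171 and 0.739 ± 0.0028 (SD, n = 3) in C. sinensis. For miR156.2 they were 0.926 ± 0.0795 and 0.851 ± 0.0126 (SD, n = 3) in C. grandis, and 0.891 ± 0.0167 and 0.884 ± 0.0163 (SD, n = 3) in C. sinensis. Since the 3 loci share 1 mature sequence, miR156 was counted once, at the locus with the most counts in a library, wherever sequences were added up. How the authors assigned reads to the loci is not stated. If reads were split between the loci, this count of miR156 is too low, and the shares and ratios below rest on it.

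A search of all mature and star sequences for the closest match to the SBP-targeting members found 1 further hairpin, an entry that the authors named after ath-miR859 (scaffold 1, minus strand, 15209057 to 15209306). It was singled out after the data had been seen and is no member.
ath-miR859 entry, star: gugacagaagauagagagcgc
ath-miR859 entry, mature: gcucucugugcuucugucauca
miR157, star: gcucucuauucuucugucauc
The star was 3 edits from the mature miR157 and 4 from miR156 and miR156k, and shared an unbroken run of 13 bases with miR157, whereas its mature arm was 3 edits from the star of miR157. In this entry the counted sequence therefore resembles the other arm of a miR157 hairpin. Its level was 993 ± 241 and 883 ± 192 CPM in C. grandis at 10 and 400 µM, and 710 ± 87.4 and 941 ± 328 CPM in C. sinensis (SD, n = 3). The log2 difference with boron was −0.17 (SE 0.27, adjusted p = 0.826) in C. grandis and +0.41 (SE 0.27, adjusted p = 0.887) in C. sinensis.

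The authors' table of predicted targets, which covers miRNAs that they listed as boron-responsive, gave miR156 (at the miR156.3 locus) 7 genes, all annotated as SBP domain. miR156k was given 6 genes, all SBP domain and all among the 7 of miR156. In the C. grandis part miR157 was named beside 2 of the 7 genes, Ciclev10011938m.g.v1.0 and Ciclev10031391m.g.v1.0, as a further miRNA that may act on them. There these 2 were assigned to all 3 sequences. In the C. sinensis part miR157 was named beside Ciclev10011938m.g.v1.0 alone. The gene assigned to miR156 alone was Ciclev10019546m.g.v1.0. miR172a-5p was given 3 genes, annotated as Fms-interacting protein, as B-cell receptor and with no annotation. None of the 39 lines of that table carried an AP2 annotation.

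Levels are given as CPM, the count relative to the scaled library size. That size sums the entries, so CPM are lower than they would be with each sequence counted once. A miRNA read covers the whole mature sequence, so CPM of different miRNAs were set side by side without division by length. Whether different sequences were captured with equal efficiency was not tested, so ranks and ratios between miRNAs are those of counts. miR156 and miR157 were of middle abundance and the other 2 were low. miR156.3 ranked 44th and 40th of all entries by mean CPM in C. grandis at 10 and 400 µM, and 49th in both C. sinensis groups, while miR157 ranked between 48th and 62nd. miR156k ranked between 108th and 136th and miR172a-5p between 114th and 145th.

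miR156.3 was at 1693, 3188 and 2713 CPM in replicates 1, 2 and 3 of C. grandis at 10 µM and at 4526, 3296 and 3929 CPM at 400 µM. In C. sinensis it was at 1784, 2048 and 1842 CPM at 10 µM and at 1523, 2155 and 3403 CPM at 400 µM. The treated C. grandis libraries all lay above the controls, by a narrow margin, whereas in C. sinensis the treated libraries lay on both sides of the controls. miR157, a close relative of miR156 with the same kind of targets, was at 882, 1836 and 1783 CPM in C. grandis at 10 µM and at 3763, 2210 and 2403 CPM at 400 µM. Its values in C. sinensis were 703, 812 and 1131 CPM at 10 µM and 931, 1184 and 1425 CPM at 400 µM. Treated and control libraries of miR157 did not overlap in C. grandis and overlapped in C. sinensis, and every treated C. grandis library lay above all 6 C. sinensis libraries. The share of all entries with this last pattern was not counted. At 400 µM alone, 28.8% of all entries had every C. grandis library above every C. sinensis library.

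miR156k, the low member that takes its name from a rice miRNA, was at 140, 171 and 133 CPM in C. grandis at 10 µM and at 307, 135 and 175 CPM at 400 µM. In C. sinensis it was at 63.9, 47.5 and 109 CPM at 10 µM and at 61.9, 116 and 251 CPM at 400 µM. Boron levels overlapped in both species, and at 10 µM all C. grandis libraries lay above all C. sinensis libraries. miR172a-5p was at 122, 180 and 71.1 CPM in C. grandis at 10 µM and at 249, 123 and 194 CPM at 400 µM. In C. sinensis it was at 25.6, 31.3 and 76.2 CPM at 10 µM and at 31.7, 66.5 and 87.7 CPM at 400 µM, on 12 to 77 counts per library. Boron levels overlapped in both species. At 400 µM the species did not overlap, and at 10 µM they did, since replicate 3 was the lowest C. grandis and the highest C. sinensis library.

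**Figure D1:**
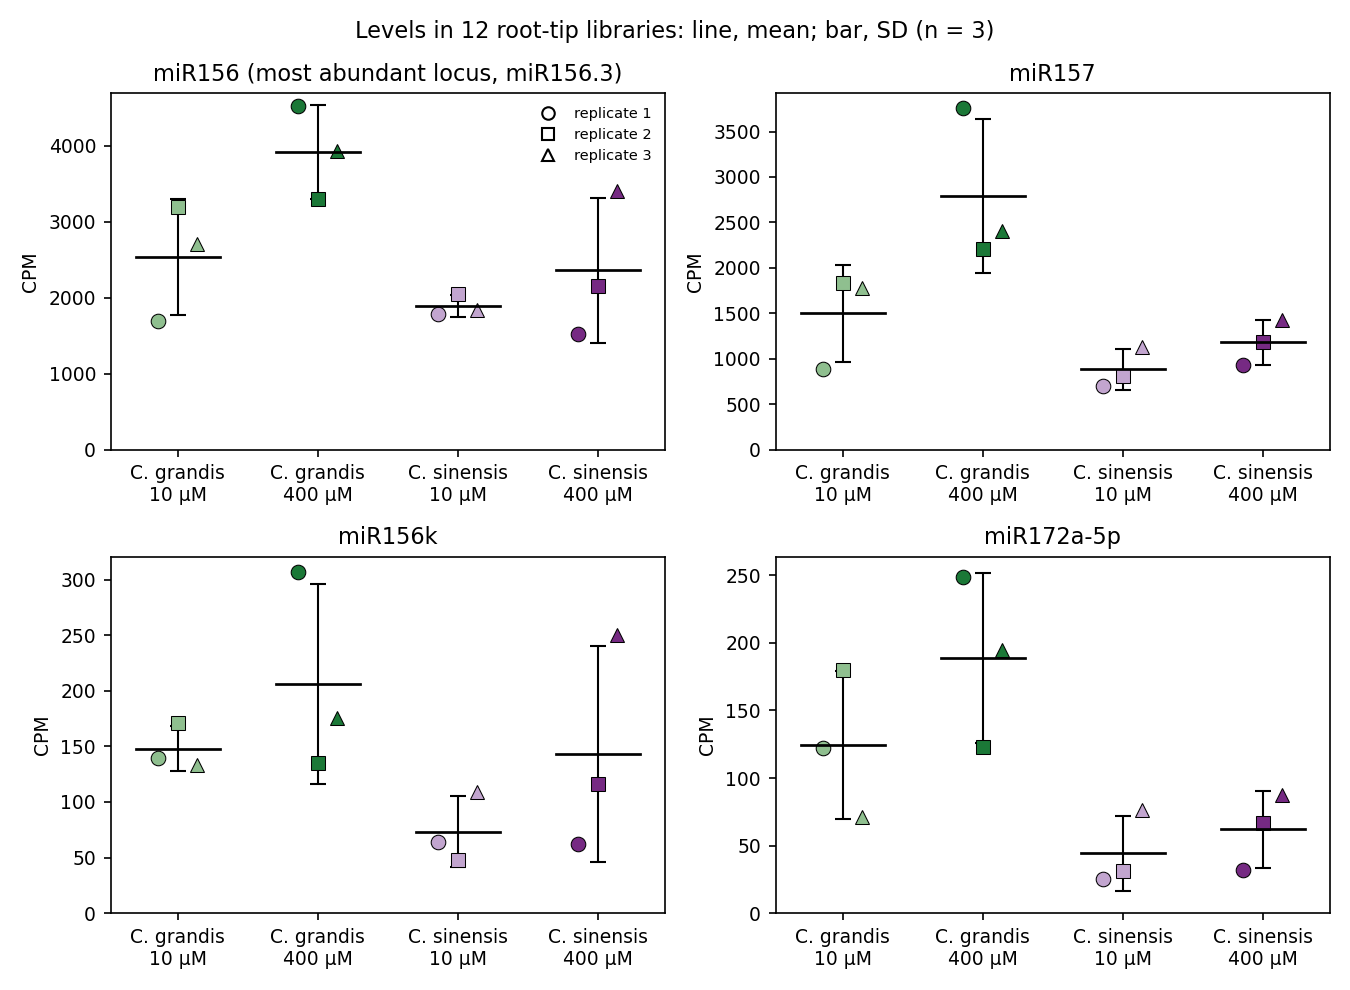
CPM (linear axis from 0) of miR156 at its most abundant locus, miR157, miR156k and miR172a-5p in each of the 12 libraries; symbols give the replicate number, lines the mean and bars the SD of 3 libraries. All 4 have their highest C. grandis value in 400 µM replicate 1 and their highest C. sinensis value in 400 µM replicate 3.

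In order of mean level, miR156.3 ran from C. grandis at 400 µM (3917 ± 615 CPM) over C. grandis at 10 µM (2531 ± 764 CPM) and C. sinensis at 400 µM (2360 ± 957 CPM) to C. sinensis at 10 µM (1891 ± 139 CPM; SD, n = 3 each). miR157 had the same order, at 2792 ± 846, 1501 ± 536, 1180 ± 247 and 882 ± 222.5 CPM (SD, n = 3 each), and so had miR156k, at 206 ± 89.8, 148 ± 20.03, 143 ± 97.1 and 73.3 ± 31.6 CPM (SD, n = 3 each), and miR172a-5p, at 189 ± 63.1, 124 ± 54.4, 61.9 ± 28.2 and 44.3 ± 27.7 CPM (SD, n = 3 each). No neighbours in these orders differed past the threshold in the tests that were made of them, and C. grandis at 10 µM was not tested against C. sinensis at 400 µM. In bulk root tips fewer cells that make a miRNA and less of it per cell cannot be told apart.

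In most groups the members were highest in the same library. How many of all entries tested had the same order was not counted. Whether the order is particular to the members is therefore not known. The 6 entries hold 4 sequences. Of the 6 entries, 6 had their highest C. grandis value at 400 µM in replicate 1 and their lowest in replicate 2, and 6 had their highest C. sinensis value at 400 µM in replicate 3 and their lowest in replicate 1. In C. grandis at 10 µM, 6 entries were highest in replicate 2. C. sinensis at 10 µM had no such common library. There the 3 miR156 loci, which hold 1 sequence, were highest in replicate 2. The other 3 sequences, miR156k, miR157 and miR172a-5p, were highest in replicate 3. The 400 µM replicate 1 library of C. grandis also had the largest total over all entries (1062488 counts) and the smallest scaling factor (0.840) of all 12. The part of these in the values was not tested. As a share of all counts with each sequence counted once, which uses no scaling factor, miR156, miR156k and miR157 together made up 1.42%, 0.979% and 1.21% of replicates 1, 2 and 3 of that group, in the same order.

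In C. grandis, boron excess over the whole treatment was compared with the control level. None of the 4 sequences passed the test (adjusted p under 0.05), where 1.18% of the 170 entries tested did. Here and below, shares and medians of all entries count each entry, also those with a shared sequence. With identical sequences merged, 2 of 124 sequences passed and 0 members. All 4 had higher values at 400 µM, as 55.9% of all entries had, with a median log2 difference of +0.61 beside +0.07 over all entries tested. miR157 was at +0.90 (SE 0.31, 95% interval 0.23 to 1.57, adjusted p = 0.131), 1.86 times its control mean, and was the 16th of 170 entries by p. miR156.3 was at +0.63 (SE 0.29, 95% interval 0.00 to 1.25, adjusted p = 0.271), miR156.1 at +0.58 and miR156.2 at +0.53 (adjusted p = 0.326 for both). miR172a-5p was at +0.60 (SE 0.46, 95% interval −0.40 to 1.60, adjusted p = 0.501) and miR156k at +0.48 (SE 0.46, 95% interval −0.52 to 1.47, adjusted p = 0.649). Of the members, miR157 and 2 of the 3 miR156 loci had higher, non-overlapping groups, as did 8.24% of all entries. The value of miR156.3 was +0.38 with total-count scaling, +0.39 with no filter and as low as +0.36 with a library left out (10 µM replicate 3). Without 400 µM replicate 1 miR157 was at +0.62 and miR156k at +0.07, and without 10 µM replicate 3 miR172a-5p was at −0.02. In the authors' deposited table miR156, miR157 and miR172a-5p are listed as higher in C. grandis at log2 changes of 0.62, 0.89 and 0.59, with false discovery rates of 0.684, 0.560 and 0.995.

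In C. sinensis the same comparison gave 0 called members, and 0% of the 170 entries passed in edgeR. The count in DESeq2 was also 0. At unadjusted p under 0.05 stood 3 entries (1.76%) in edgeR, none of them a member, and 4 in DESeq2. All 4 sequences again had higher values at 400 µM, as 50% of all entries had, with a median log2 difference of +0.46 beside −0.00063 over all entries tested. miR156k was highest at +0.98 (SE 0.48, 95% interval −0.06 to 2.02, adjusted p = 0.887), 1.95 times its control mean, and stood 4th of 170 entries by p. miR172a-5p was at +0.50 (SE 0.50, 95% interval −0.59 to 1.60), miR157 at +0.42 (SE 0.31, 95% interval −0.25 to 1.09) and miR156.3 at +0.32 (SE 0.29, 95% interval −0.31 to 0.94), all at adjusted p = 0.887. None of the members had non-overlapping groups, where 10% of all entries had. Between libraries of equal replicate number miR157 and miR172a-5p were higher at 400 µM in 3 of 3 pairs, as were 18.8% of all entries, and miR156 and miR156k in 2 of 3 pairs. The estimates above are from the fit without a block. With a replicate block, which compares libraries of equal number, miR156k was at +0.85 (SE 0.37) and miR172a-5p at +0.54 (SE 0.43). With that block miR157 was at +0.43 (SE 0.32) and miR156.3 at +0.24 (SE 0.29), all 4 at adjusted p = 0.890. Without 400 µM replicate 3, the library in which all members were highest, the 3 miR156 loci were at −0.02 to +0.02, miR156k at +0.32, miR157 at +0.29 and miR172a-5p at +0.20. With other single libraries left out miR172a-5p ran from +0.18 (without 10 µM replicate 1) to +1.12 (without 10 µM replicate 3). In the authors' deposited table miR156k is the one member listed for C. sinensis, at a log2 change of 0.956 with a false discovery rate of 0.805.

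Whether the boron response differed between the species was tested as the difference of the 2 effects, and none of the members passed, as none of the 170 entries did in edgeR (0%; 9 entries, 5.29%, at unadjusted p under 0.05, and 2 entries called in DESeq2, neither of them a member). miR157 had the larger value in C. grandis by 0.48 (SE 0.44, 95% interval −0.47 to 1.42), and miR156.3 by 0.31 (SE 0.41, 95% interval −0.57 to 1.19). miR156k had the larger value in C. sinensis, at −0.50 (SE 0.66, 95% interval −1.93 to 0.94), and miR172a-5p was at +0.10 (SE 0.69, 95% interval −1.40 to 1.60). All had adjusted p = 0.987. The intervals of miR156k and miR172a-5p were the widest of the 6 entries. These 2 had 12 to 274 counts per library, and their CPM had coefficients of variation of 13.5% to 68.1% and 33.4% to 62.5% within groups; the part of low counts and of the spread between libraries in these intervals was not tested.

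**Figure D2:**
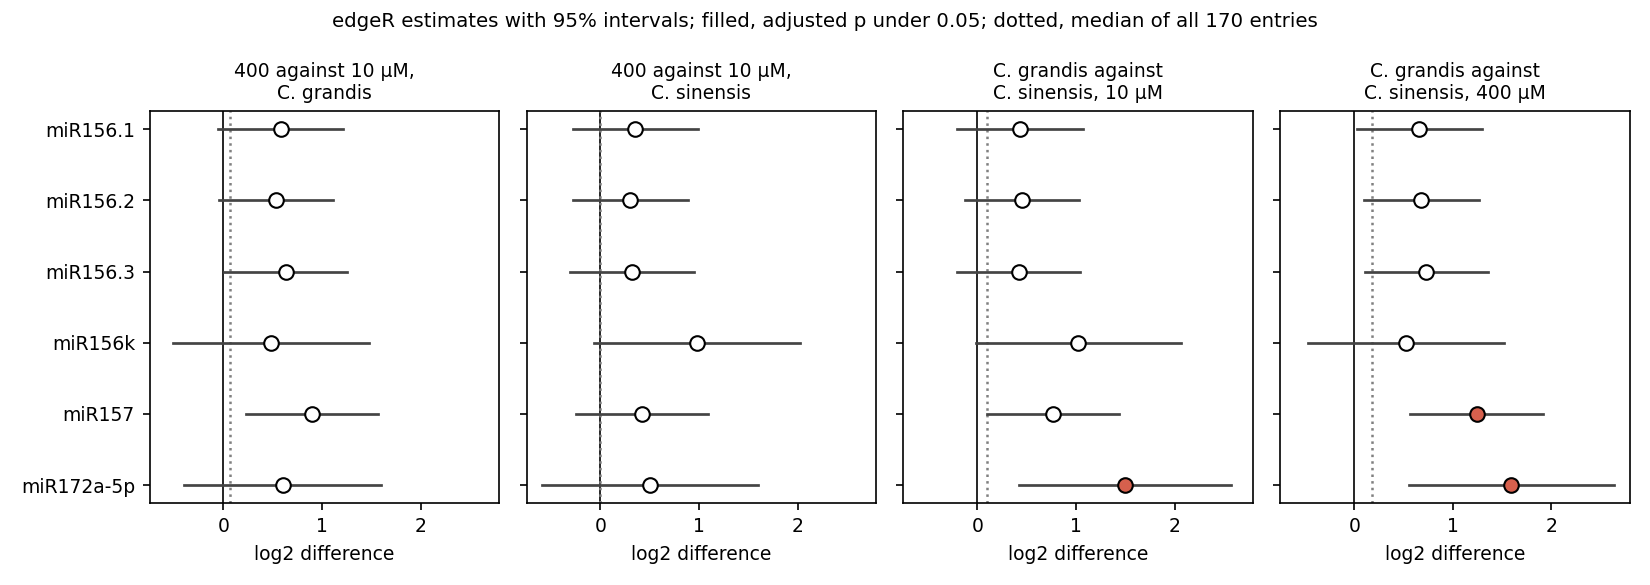
Log2 differences of the 6 entries with 95% intervals from the edgeR fit, in 4 panels: boron in each species, and C. grandis against C. sinensis at each boron level; filled points have adjusted p under 0.05 and the dotted line is the median of all 170 entries. All points lie to the right of 0, and the filled ones are miR172a-5p at both boron levels (+1.50 and +1.59) and miR157 at 400 µM (+1.24).

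Between the species, miR172a-5p was higher in C. grandis at both boron levels and miR157 was higher at 400 µM. Both species were counted on 1 list of mature sequences. The part of sequence differences between the species in these counts was not tested. At 10 µM miR172a-5p was 2.81 times as abundant in C. grandis as in C. sinensis, a log2 difference of +1.50 (SE 0.50, 95% interval 0.42 to 2.58, adjusted p = 0.0401). It was the 1 sequence of 4 that passed, where 28.2% of all entries were called and 16.5% were called higher in C. grandis. With identical sequences merged, 35 of 124 sequences were called at 10 µM, 20 of them higher in C. grandis. miR156k was at +1.02 (SE 0.48, adjusted p = 0.131), miR157 at +0.77 (SE 0.31, adjusted p = 0.0794) and miR156.3 at +0.42 (SE 0.29, adjusted p = 0.288). At 400 µM 2 of the 4 sequences passed, where 28.8% of all entries were called and 20.6% were called higher in C. grandis. With identical sequences merged, 28 of 124 were called at 400 µM, 15 of them higher. miR172a-5p was 3.05 times as abundant, at +1.59 (SE 0.48, 95% interval 0.56 to 2.63, adjusted p = 0.0247), and miR157 2.37 times, at +1.24 (SE 0.31, 95% interval 0.57 to 1.92, adjusted p = 0.0115). miR156.3 was at +0.73 (SE 0.29, adjusted p = 0.0739), miR156.2 at +0.68 (adjusted p = 0.0739), miR156.1 at +0.66 (adjusted p = 0.0947) and miR156k at +0.53 (SE 0.46, adjusted p = 0.372). All 4 sequences thus had higher values in C. grandis at both levels, as 53.5% and 58.8% of all entries had, with medians of +0.90 and +0.99 beside +0.10 and +0.18 over all entries. At 400 µM miR157 and miR172a-5p had non-overlapping, higher groups in C. grandis, as did 28.8% of all entries, and at 10 µM miR156k had, as did 27.1%.

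The split of all species calls depended on the scaling. Of 48 entries called at 10 µM, 28 were higher in C. grandis, against 23 of 52 with median-of-ratios scaling and 34 of 47 with total-count scaling. At 400 µM the split was 35 of 49, against 21 of 47 with median-of-ratios scaling, 17 of 42 with no filter and 14 of 62 without C. grandis 400 µM replicate 2. Median-of-ratios scaling shifted the median of all entries by −0.14 at 10 µM and by −0.18 at 400 µM. Relative to that median, miR172a-5p was at +1.40 and +1.42 at the 2 levels (over all alternatives +1.03 to +2.02 and +1.08 to +1.65), and miR157 at +1.06 at 400 µM (+0.75 to +1.15). The call of miR172a-5p held in 11 of 20 alternatives at each level and that of miR157 at 400 µM in 17 of 20, with adjusted p of miR172a-5p from 0.0144 to 0.202 at 10 µM and from 0.0182 to 0.194 at 400 µM, and of miR157 from 0.0041 to 0.109. The lowest values came without 1 library: at 10 µM miR172a-5p was at +1.01, miR157 at +0.42 and miR156.3 at +0.056 without C. grandis replicate 2, and at 400 µM miR172a-5p was at +1.02 and miR157 at +0.83 without C. sinensis replicate 1.

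The balance of the SBP-targeting sequences to miR172a-5p was taken within each library, as the ratio of summed counts with each sequence counted once, which does not depend on scaling between libraries. In every library miR156, miR156k and miR157 together had 22.2 to 99.75 times the counts of miR172a-5p. In C. grandis the ratio was 22.2, 28.9 and 65.1 at 10 µM and 34.6, 45.9 and 33.5 at 400 µM, in replicates 1, 2 and 3. In C. sinensis it was 99.75, 93.0 and 40.4 at 10 µM and 79.3, 52.0 and 57.9 at 400 µM. Boron levels overlapped in both species, and so did the species at 10 µM, where replicate 3 was the highest library of C. grandis and the lowest of C. sinensis.

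On the log2 scale (0.5 added to both sums) the ratio was 5.11 ± 0.80 and 5.23 ± 0.25 in C. grandis at 10 and 400 µM, and 6.14 ± 0.71 and 5.94 ± 0.30 in C. sinensis (SD, n = 3). With boron it differed by +0.12 in C. grandis and −0.20 in C. sinensis, both smaller than the spread between libraries. Both differences changed sign when single libraries were left out, running from −0.20 to +0.57 and from −0.61 to +0.02. The species differed by −1.03 at 10 µM (spread 0.76) and by −0.71 at 400 µM (spread 0.28), lower in C. grandis. At 400 µM all 3 C. grandis libraries (5.06 to 5.51) lay below all 3 C. sinensis libraries (5.69 to 6.27), and without any 1 library of these groups the difference ran from −0.85 to −0.54. No test was made of this score over chosen members.

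**Figure D3:**
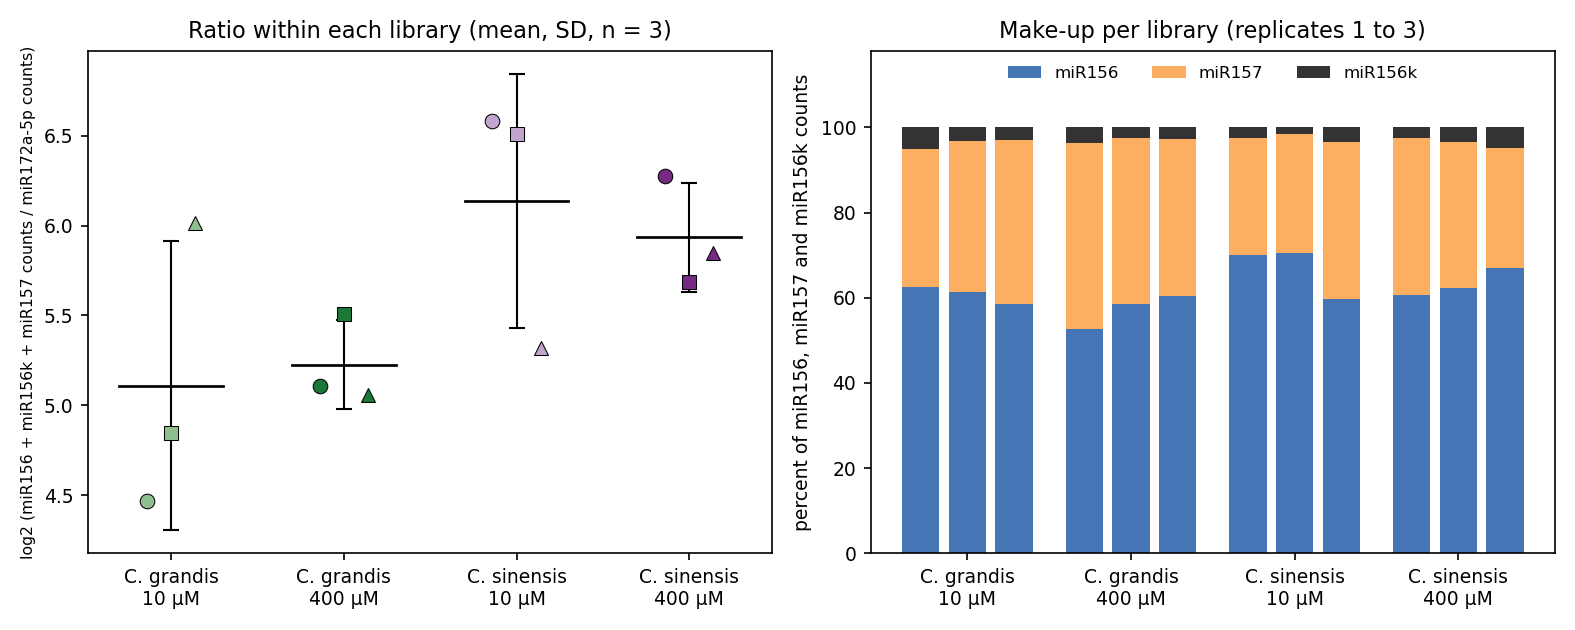
Left, log2 ratio of miR156, miR156k and miR157 counts to miR172a-5p counts in each library (circle, square and triangle for replicates 1, 2 and 3; lines, mean; bars, SD of 3 libraries; the axis does not start at 0). Right, percent of the summed miR156, miR157 and miR156k counts that each contributed, replicates 1 to 3 from left to right; miR157 runs from 27.6% to 43.8%.

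Among the SBP-targeting sequences miR156 had the most counts in every library, at 52.7% to 70.5% of their sum. It was followed by miR157 at 27.6% to 43.8% and miR156k at 1.63% to 5.14%. The ratio of miR157 to miR156 counts was 0.520, 0.576 and 0.657 in C. grandis at 10 µM and 0.831, 0.670 and 0.612 at 400 µM. In C. sinensis it was 0.394, 0.396 and 0.614 at 10 µM and 0.612, 0.549 and 0.419 at 400 µM. Boron levels overlapped in both species. The group means of 0.584 ± 0.0689 and 0.704 ± 0.114 in C. grandis and of 0.468 ± 0.127 and 0.527 ± 0.0983 in C. sinensis (SD, n = 3) differed with boron by slightly more than the larger SD in C. grandis and by less than either SD in C. sinensis.

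Families related to this pathway were listed by number: miR529 and miR535, sequence relatives of miR156 in land plants, and miR159, which acts on MYB factors, and miR390, which starts the tasiRNA pathway of auxin response factors, both linked to vegetative phase change in Arabidopsis. miR529 and miR535 had 0 entries in the count table, miR159 had 4 entries with 3 sequences and miR390 2 entries with 1 sequence. None of these 4 sequences passed in the boron comparisons, where 1.18% (C. grandis) and 0% (C. sinensis) of all entries did. In C. grandis they ran from −0.49 to +0.94, and the smallest p values were those of ath-miR159a (+0.58, SE 0.21, adjusted p = 0.143) and of miR390 (−0.49, SE 0.25, adjusted p = 0.336). In C. sinensis they ran from −0.14 to +0.67. Between the species miR390 was lower in C. grandis, opposite in sign to the members, at −0.76 (SE 0.25, adjusted p = 0.0401) at 10 µM and at −1.11 (SE 0.26, adjusted p = 0.00681) at 400 µM. At 400 µM 1 miR159 sequence was higher (+0.75, SE 0.21, adjusted p = 0.024). Of all entries, 28.2% were called at 10 µM and 28.8% at 400 µM.

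Likeness between entries was measured as the root mean square difference of log2 CPM over the 12 libraries, each entry centred on its own mean. For miR156.3 the closest sequences of other families were ath-miR167a-5p (0.259), ath-miR162a-3p (0.262) and mdm-miR167h (0.272), with a median of 0.649 over the other entries tested. The other members stood at 0.314 (miR157), 0.464 (miR156k) and 0.686 (miR172a-5p) from it, and its 2 sister loci at 0.0449 and 0.0684. For miR172a-5p, whose own SD over the libraries was 1.04, the closest were ath-miR171b-3p (0.464), zma-miR319a-5p (0.561) and the unnamed scaffold_5_25676 (0.588), with a median of 1.03. Among the members miR156k was nearest to miR172a-5p, at 0.490, followed by miR157 at 0.557. These are descriptions over libraries that share their total and scaling.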

How the data were processed

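Small RNA from 12 root-tip libraries was analysed. The authors deposited raw counts, 1 whole number per library for each miRNA entry. Of tools, the submitters' processing notes name DESeq alone and give no version; alignment, miRNA calling and the build are not given in the sources used here. The deposited table of identified miRNAs gave family names, sequences, positions and a score of the hairpin prediction, which was not used. The authors' deposited table of boron-responsive miRNAs gave log2 fold changes, p-values and false discovery rates, and their target table the predicted genes.

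The test was that of edgeR 4.0.16 in R 4.3.3, with trimmed-mean scaling, filterByExpr at a minimum count of 10 (170 of 172 entries kept), 1 mean per group of species by boron level over all libraries, and the two-sided quasi-likelihood test; calls had p under 0.05 after Benjamini-Hochberg adjustment over all entries. The biological coefficient of variation was 28.1%. Standard errors are the absolute log2 difference over the root of F. The fit was tested on simulated data. DESeq2 1.42.0, other scalings, filters, merged sequences, subsets of libraries, a replicate block and each library left out were alternatives. All members and the entries nearest to them by the stated rule were named; members and lists were chosen with earlier results of these data known. No 2 replicate libraries agreed within sampling noise. Deviations from group means of equally numbered libraries correlated at 0.40, 0.24 and 0.22 between the boron levels of C. sinensis. The numbers were taken to pair those libraries, on the data and not on the labels. The main fit had no block, so its intervals and p-values for boron in C. sinensis leave that pairing out. The replicate block, run as an alternative, changed no boron call of a member.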

Additional observations from a re-analysis of the deposited data

How the results depend on the processing

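Over 594 recomputed log2 differences of the 6 entries, 556 kept their direction and their side of the threshold, 21 lost and 2 gained a call and 15 changed sign. In both boron comparisons and in their difference the count of called members was 0 in every alternative run. At 10 µM the count of called members between species was 1, against 0 with median-of-ratios scaling, with the libraries of the comparison alone and with the replicate block (miR172a-5p +1.54, adjusted p = 0.0603), and 2 with total-count scaling. In that comparison miR172a-5p lost its call without C. grandis 10 µM replicate 1 or 2, C. sinensis 10 µM replicate 1 or 2, or C. sinensis 400 µM replicate 2 or 3 (+1.51, +1.01, +1.19, +1.28, +1.44 and +1.44, count of called members 0 to 1), and miR157 gained one without C. grandis 10 µM replicate 1 (+1.04; +0.42 without replicate 2). At 400 µM the count was 2, against 1 unfiltered, 1 at a mean CPM of at least 10, and 0 to 2 with a library left out: miR157 lost its call without C. grandis 400 µM replicate 1 or C. sinensis 400 µM replicate 1 or 2 (+0.97, +0.83 and +1.01), and miR172a-5p without C. sinensis 400 µM replicate 1, 2 or 3 (+1.02, +1.42 and +1.54), C. grandis 400 µM replicate 1 or 3 (+1.34 and +1.57), C. grandis 10 µM replicate 2 or C. sinensis 10 µM replicate 1 (+1.31 each).

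The sign changes lay among values that were not called. In the difference of boron effects miR172a-5p was at −0.155 under total-count scaling, −0.13 unfiltered and −0.13 at a mean CPM of at least 10, and from −0.52 to +0.31 with a library left out; miR156.1, miR156.2 and miR156.3 ran from −0.16 to +0.32, −0.14 to +0.32 and −0.071 to +0.42. With a library left out miR172a-5p ran from −0.017 to +0.73 for boron in C. grandis, miR156.2 and miR156.3 from −0.019 to +0.44 and −0.011 to +0.46 for boron in C. sinensis, and miR156k from −0.077 to +0.82 between the species at 400 µM.

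Over all entries, the count called for boron in C. grandis was 2, against 4 with median-of-ratios scaling, 4 with total-count scaling, 5 in DESeq2 and 0 with the 6 libraries of that species, and 0 to 8 with a library left out (0, 8 and 4 without 400 µM replicates 1, 2 and 3). For the difference of effects it was 0, against 1 with median-of-ratios scaling, 2 with total-count scaling, 2 in DESeq2, 2 unfiltered, 1 with a mean CPM of at least 10, 1 with identical sequences merged and 2 with the replicate block, and 0 to 2 with a library left out (1 without 400 µM replicate 2 of C. grandis or its 10 µM replicate 1, 2 without its 10 µM replicate 2 or 3). At 10 µM the species count of 48 was 23 to 49 with a library left out (25 without C. grandis replicate 2, 23 and 27 without C. sinensis replicates 1 and 2). At 400 µM the count of 49 was 28 with identical sequences merged and 19 to 62 with a library left out (31 without C. grandis replicate 3, 21 and 19 without C. sinensis replicates 1 and 2). The cause of these changes was not tested. Total-count scaling shifted the median of all entries by −0.24 for boron in C. grandis, and no filter by −0.20. Elsewhere replicate numbers were not taken to pair the libraries: equal numbers correlated at −0.12, −0.23 and 0.20 between the boron levels of C. grandis. Between the species they correlated at −0.046, 0.019 and −0.153 at 10 µM and at −0.00023, −0.049 and 0.298 at 400 µM. The values of 0.20 and 0.298, both of replicate 3, were near the lower values in C. sinensis (0.235 and 0.222). The balance of SBP-targeting sequences to miR172a-5p moved by less than the spread between libraries in each alternative run; restricted to guide arms it could not be computed, because miR172 has no other entry. miR172a-5p had as few as 12 counts and miR156k as few as 30 in a library.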

Other observations

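Of the sequences outside the 3 families, an unnamed mature sequence with 3 loci on scaffold 2 (scaffold_2_6131, scaffold_2_6137 and scaffold_2_6143) was the next most similar to miR156 after the ath-miR859 entry. Its star arm was 5 edits from miR156.
scaffold_2_6131, star: ugacaaugagagagagcacac
scaffold_2_6131, mature: gugcucucuaccauugucaua
It was chosen after its values were seen, so its p-values are given as description alone. Its level ran opposite to the members between the species, at 78.7 ± 7.87 and 74.3 ± 44.2 CPM in C. grandis at 10 and 400 µM and at 181 ± 43.1 and 140 ± 47.8 CPM in C. sinensis (SD, n = 3). At 10 µM it was lower in C. grandis in all 3 libraries, by a log2 difference of −1.20 (SE 0.39, adjusted p = 0.0389), and at 400 µM the difference was −0.93 (SE 0.39, adjusted p = 0.0856). In the comparison at 10 µM 20 of 170 entries were called lower in C. grandis. The share of all entries with every C. grandis library lower is not given here.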
